A study of Homo sapiens with 16 samples.

Results

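The first 30 min of the response of K562 cells to phorbol 12-myristate 13-acetate (PMA) was described by comparing the 0.5 h libraries with the 0 h libraries. K562 is an established human leukaemia cell line with erythroid features, and PMA pushes it towards a megakaryocyte-like state. The comparison used 4 of the 16 RNA-seq libraries of a time course: 2 of untreated wild-type cells (0 h) and 2 of wild-type cells given 25 nM PMA for 0.5 h. All members were taken by their time-point label, not by any measured value. The 0 h cells were the only control, and no mock-treated sample collected at 0.5 h was analysed here, so handling and PMA cannot be told apart. The labels number the libraries of a time point as replicates 1 and 2 without saying whether they came from separate cultures, so the p-values measure only the spread between these samples, which may be technical.

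PMA mimics diacylglycerol, the lipid that activates protein kinase C and the RasGRP exchange factors. Through these it switches on Ras, RAF, MEK and the kinase ERK, which phosphorylates the ternary complex factors bound beside serum response factor (SRF) at DNA elements called CArG boxes. The immediate-early genes, which need no new protein synthesis to be transcribed, are the classical targets of this route. Many encode transcription factors of the FOS, JUN, EGR and NR4A families, and others encode phosphatases and RNA-decay proteins that later shut the signal down.

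The 4 libraries held 29241520 to 35586253 estimated reads and between 19616 and 20217 genes with at least 1 read. All 14 markers of K562 and erythroleukaemia cells were above 1 TPM (reads per transcript length, scaled to a fixed sum) in each of them, among them the fetal globin HBG2 and GATA1. T-cell CD5, B-cell MS4A1, monocyte S100A8, fibroblast LUM and epithelial KRT5 were at 0 in all 4. The summed epithelial markers, led by KRT18 and KRT8, were at 641 to 710 TPM at 0 h and 629.8 to 631 TPM at 0.5 h, and 5 of the 6 exceeded 1 TPM. The 2 libraries of 0 h lay farther apart than those of 0.5 h, with a root-mean-square distance in log2 CPM (reads scaled to a fixed library size) over genes of 0.621 against 0.479. The distance from 0 h to 0.5 h was 0.536 between the replicate 1 libraries and 0.695 between those of replicate 2, the first below and the second above the distance between the 0 h replicates.

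Against that spread a small set of genes rose sharply. Of 17559 genes tested, 30 (0.171%) passed edgeR's quasi-likelihood test at a Benjamini-Hochberg adjusted p under 0.05; 29 were higher at 0.5 h (0.165%) and 1 was lower (0.0057%). Those that rose were led by the EGR and FOS transcription factors, with JUN, JUNB, ATF3 and NR4A1, and included the activation antigen CD69, the chemokine CXCL8, the survival factor MCL1 and the ERK phosphatases DUSP1 and DUSP5. In all 29 both 0.5 h libraries lay above both 0 h libraries, which held for 28.3% of all genes tested. The 29 were called from these same libraries, so this describes them and is no further support for the calls. Of the 29, 27 were protein-coding. The median log2 fold change over all genes tested was -0.0025. At an unadjusted p under 0.05 there were 3907 genes (22.3%), a count tied to GC content as described further on. Leaving out 0 h replicate 1 gave 3585 calls among 18033 genes tested (19.9%, with 10.8% higher and 9.13% lower). Leaving out 0 h replicate 2 gave 23, and leaving out 0.5 h replicate 1 or 2 gave 21 or 20. In all, 17 of the 30 were called whichever library was left out. A fit of the 4 libraries alone called 10 of the 30 (FOS, FOSB, EGR1, EGR2, EGR3, JUN, JUNB, NR4A1, ENSG00000285000 and ABCB10P4), and limma-voom called all but EGR4, DUSP1, DUSP5, GLIPR1, SMIM47 and ENSG00000285000.

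**Figure D1:**
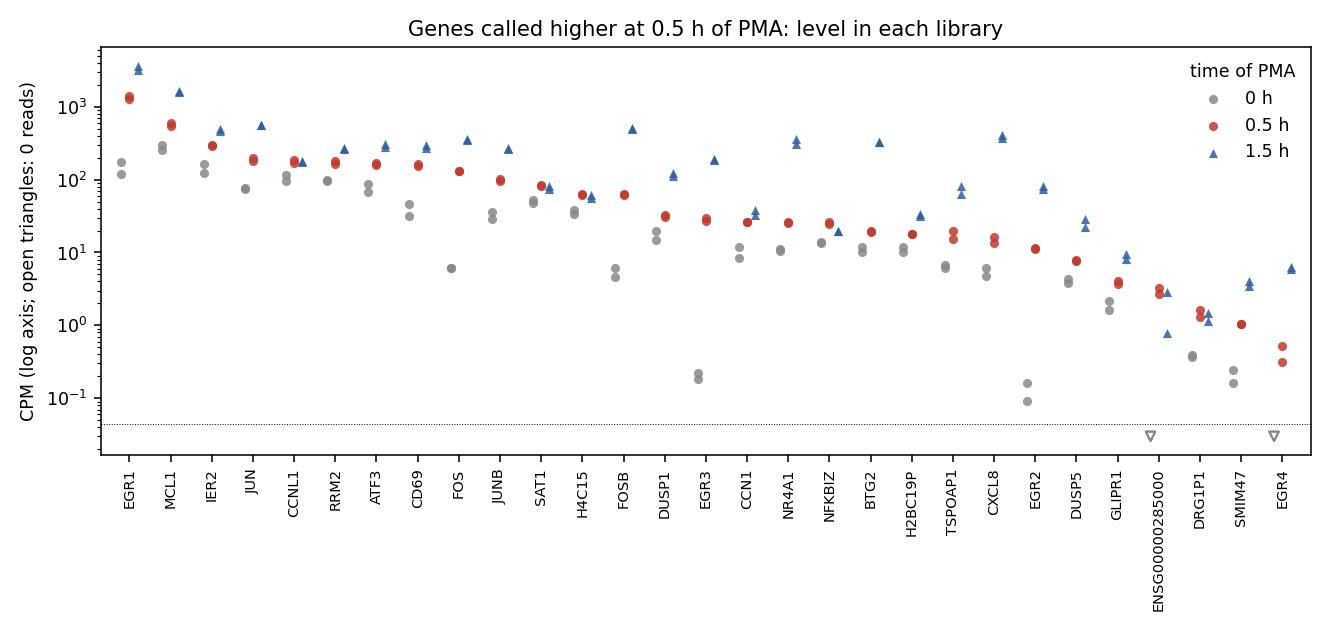
Level of each of the 29 genes called higher at 0.5 h, in CPM on a log axis, in the 2 libraries each of 0 h (grey), 0.5 h (red) and 1.5 h (blue triangles); open triangles at the bottom mark 0 reads. FOS goes from about 6.1 to about 132 CPM, EGR2 and EGR3 start under 0.3 CPM, and no red point lies below a grey point of the same gene.

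Of the 9 gene lists, that of the immediate-early transcription factors held the largest changes. Of its 45 members, all tested, 10 (22.2%) were called higher and none lower, against 0.165% and 0.0057% of all genes tested. As the lists were chosen with earlier results of these data known, this contrast is a description and no test. The median of the whole list was 0.09 on the log2 scale. At an unadjusted p under 0.05, 14 members were higher and 4 lower, where 10.9% and 11.3% of all genes tested were. The groups did not overlap in 19 members that were higher and 5 that were lower, against 28.3% and 27.6% of all genes tested. The 10 were EGR1, EGR2, EGR3, EGR4, FOS, FOSB, JUN, JUNB, ATF3 and NR4A1.

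The EGR genes encode zinc-finger transcription factors that bind GC-rich promoters. EGR1 (ENSG00000120738, GRCh38 chromosome 5, 138465490 to 138469315) was the most abundant member of the list, with 118 and 175 CPM at 0 h and 1278 and 1422 CPM at 0.5 h. The lower 0.5 h library was thus several times the higher 0 h library, and the change was 3.20 on the log2 scale (SE 0.20, edgeR adjusted p 1.78e-06), with 3.44 within replicate 1 and 3.02 within replicate 2. EGR2 (chromosome 10, 62811996 to 62919900) went from 3 and 5 reads, or 0.0921 and 0.161 CPM, to 422 and 397 reads, or 11.1 and 11.4 CPM, 6.44 on the log2 scale (SE 0.21, edgeR adjusted p 5.97e-10). EGR3 went from 6 and 7 reads to 1024 and 1047. It had the largest change of the list, 7.10 on the log2 scale. EGR2 and EGR3 were therefore near silent before treatment, while EGR1 was already expressed and stood at 72.7 TPM at 0 h and 689 TPM at 0.5 h. EGR4 had 0 reads in both 0 h libraries and 12 and 18 reads at 0.5 h. Against a floor of 3 reads per library its level at 0.5 h was at least 4.42-fold higher, with an edgeR adjusted p of 0.0129 that became 0.118 without 0 h replicate 2 and 0.0773 without 0.5 h replicate 2.

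FOS and FOSB encode the FOS side of the AP-1 transcription factor, whose other subunit is a JUN protein. FOS (ENSG00000170345, chromosome 14, 75278774 to 75282230) had the smallest p-value of the comparison. It had 6.08 and 6.18 CPM at 0 h and 131 and 133 CPM at 0.5 h, 4.43 on the log2 scale (SE 0.13, edgeR adjusted p 3.14e-10), and the replicates of each time point nearly coincided. FOSB (chromosome 19, 45467995 to 45475179) rose from 6.14 and 4.602 CPM to 60.5 and 64.4 CPM, by 3.54 on the log2 scale (SE 0.17, edgeR adjusted p 6.92e-08); it overlaps ERCC1 on the other strand. The JUN partners started higher and rose less. JUN (chromosome 1, 58780788 to 58784327) went from 73.9 and 77.1 CPM to 182 and 199 CPM, 1.33 on the log2 scale (SE 0.12, edgeR adjusted p 0.000121). JUNB went from 28.9 and 35.9 CPM to 95.6 and 103 CPM, 1.62 on the log2 scale (SE 0.18, edgeR adjusted p 0.000955); it overlaps HOOK2 on the other strand. For JUND, the third JUN gene, the 0 h libraries stood at 92.0 and 129 CPM and the 0.5 h libraries at 93.1 and 92.6 CPM, with an edgeR adjusted p of 0.523.

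ATF3, a stress-induced factor that pairs with JUN proteins, stood at 67.4 and 87.7 CPM at 0 h and at 158 and 167 CPM at 0.5 h, 1.07 on the log2 scale (SE 0.12, edgeR adjusted p 0.00105). NR4A1, an orphan nuclear receptor, stood at 10.6 and 11.3 CPM and then at 26.3 and 25.1 CPM, 1.23 on the log2 scale (SE 0.15, edgeR adjusted p 0.0019). For ATF3 and NR4A1 both 0.5 h libraries lay above both 0 h libraries, as in 28.3% of all genes tested. Of the same family, NR4A2 and NR4A3 were not called. NR4A2 stood at 6.02 and 7.69 CPM and then at 9.32 and 9.60 CPM (edgeR adjusted p 0.181), and NR4A3 had 4 and 8 reads at 0 h and 16 and 30 at 0.5 h (edgeR adjusted p 0.181). MYC, a growth regulator in the same list and also among the short-lived transcripts, had 136 and 161 CPM at 0 h and 132 and 148 CPM at 0.5 h (edgeR adjusted p 0.838). The Krüppel-like factors KLF6 and KLF10 were likewise not called at 0.5 h (edgeR adjusted p 0.32 and 0.652).

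**Figure D2:**
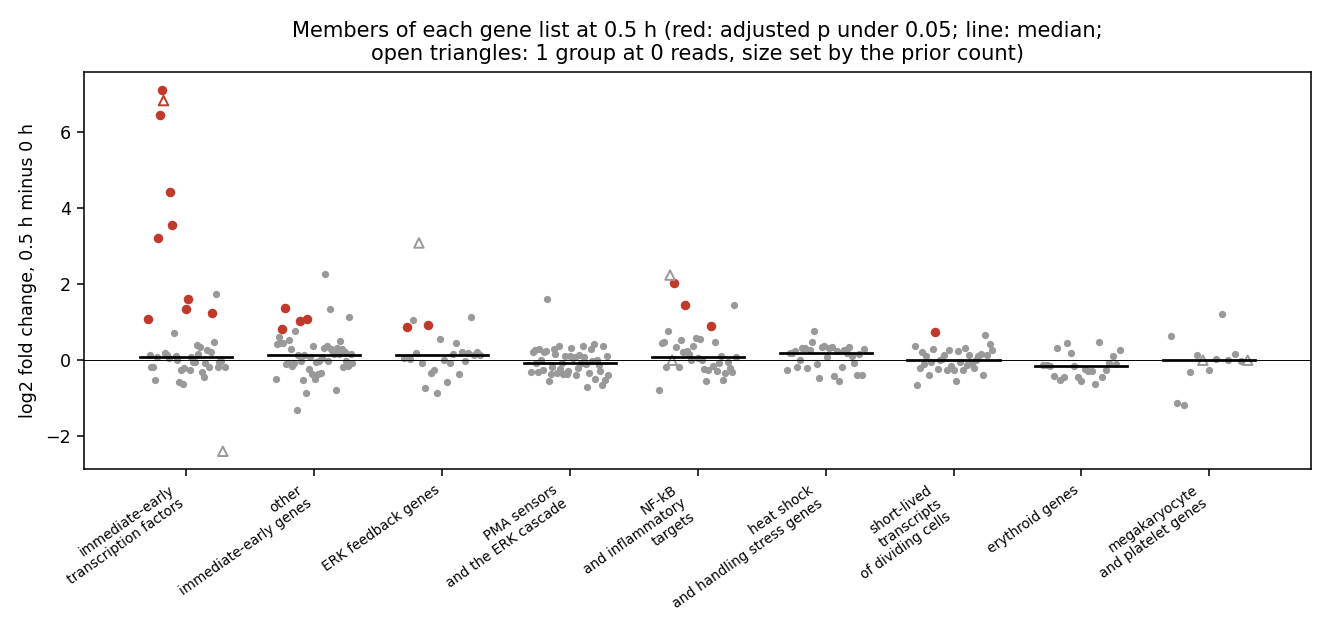
Log2 fold change at 0.5 h of every tested member of the 9 gene lists, with called members in red, others in grey and list medians as black lines; open triangles are genes with 0 reads in both libraries of a group, whose plotted size depends on the prior count. The red points gather in the immediate-early transcription factors, where 10 of 45 members were called, and the medians of all lists lie between -0.14 and 0.18. The lists were chosen with earlier results of these data known.

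The stretches of promoter below show the regulatory letters that were found near the start of 3 of the genes that rose. Of the 29, 19 had an entry in the RefSeq promoter table (GRCh38.p14). Only the start listed first for a gene was used, which need not be that of the transcript with the most reads. The 250 bases before that start were searched on both strands for 5 motifs. These were the CArG box of SRF (searched in its usual form of CC, then A or T bases, then GG), the cyclic AMP response element TGACGTCA bound by CREB and ATF proteins, the AP-1 element TGACTCA, the EGR element GCGTGGGCG and the ETS element CCGGAAGT. The stretch from 150 to 71 bases before the start is printed 5′ to 3′ along the gene's strand, with matches in capitals. EGR1 lies at chr5:138465329-138465408 on the plus strand, CXCL8 at chr4:73740419-73740498 on the plus strand and DUSP1 at chr5:172771266-172771345 on the minus strand.
EGR1: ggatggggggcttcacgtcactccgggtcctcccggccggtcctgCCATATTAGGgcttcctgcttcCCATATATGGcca
CXCL8: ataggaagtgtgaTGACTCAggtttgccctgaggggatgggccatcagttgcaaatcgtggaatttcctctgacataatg
DUSP1: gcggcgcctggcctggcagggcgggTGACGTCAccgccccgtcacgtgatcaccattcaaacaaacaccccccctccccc
In EGR1 the capitals mark 2 CArG boxes, from 105 to 96 and from 83 to 74 bases before the start. In CXCL8 they mark an AP-1 element from 137 to 131, and in DUSP1 a cyclic AMP response element from 125 to 118.

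A CArG box was present in 1 of the 19 promoters (5.26%, EGR1), against 1.08% of 12159 promoters of tested genes. The sequence TGACGTCA was present in 2 (10.5%, CCNL1 and DUSP1), against 2.7%, and TGACTCA in 1 (5.26%, CXCL8), against 2.95%. GCGTGGGCG and CCGGAAGT were in none of the 19 windows, against 1.11% and 6.37%. These are matches of letters in a window of 250 bases, given as a description.

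Among the other immediate-early genes, 4 of 52 tested (7.69%) were called higher and none lower, against 0.165% and 0.0057% of all genes tested. The list median was 0.15 on the log2 scale. MCL1, an anti-apoptotic BCL2 relative with a short-lived message, went from 294 and 255 CPM to 603 and 552 CPM, 1.07 on the log2 scale (SE 0.13, edgeR adjusted p 0.00224). CCN1, a secreted matrix-associated protein, went from 8.44 and 11.8 CPM to 26.2 and 26.03 CPM, 1.37 on the log2 scale (SE 0.16, edgeR adjusted p 0.00105). BTG2, an anti-proliferative protein that recruits the deadenylase complex, went from 10.2 and 11.9 CPM to 19.01 and 19.9 CPM, 0.82 on the log2 scale (SE 0.10, edgeR adjusted p 0.00235). All these rises were larger than the gap between the replicates of either time point. IER2 stood at 123 and 164 CPM at 0 h and at 291 and 299 CPM at 0.5 h, with an edgeR adjusted p of 0.0204 that became 0.146 without 0.5 h replicate 1 and 0.181 without 0.5 h replicate 2. ZFP36, which encodes a protein that destabilises AU-rich messages, had the smallest p among the list's uncalled members. It stood at 10.7 and 17.4 CPM and then at 29.8 and 32.4 CPM (edgeR adjusted p 0.0864). PIM1, the most abundant member, stood at 697 and 888 CPM and then at 751 and 796 CPM (edgeR adjusted p 0.904). PTGS2 had the largest fitted change of the list but at most 7 reads in any of the 4 libraries, so no fold is given.

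The ERK feedback genes encode proteins that dampen the cascade. Of 26 tested, 2 (7.69%) were called higher and none lower, against 0.165% and 0.0057% of all genes tested. The list median was 0.13, and 0.02 with the GC trend described further on removed from each library. DUSP1, a nuclear phosphatase of MAP kinases, went from 14.8 and 19.99 CPM to 32.6 and 31.1 CPM, 0.87 on the log2 scale (SE 0.15, edgeR adjusted p 0.0366). DUSP5, a nuclear phosphatase specific for ERK, went from 3.84 and 4.28 CPM to 7.68 and 7.80 CPM, 0.93 on the log2 scale (SE 0.16, edgeR adjusted p 0.0378). In both genes the 0.5 h libraries lay above both 0 h libraries, as in 28.3% of all genes tested. Neither was called by limma-voom, which called 0 of the 26, or with the 4 libraries alone, and both calls needed all libraries of 0.5 h: without 0.5 h replicate 1 the edgeR adjusted p was 0.335 for DUSP1 and 0.269 for DUSP5, and without 0.5 h replicate 2 it was 0.215 and 0.287. For DUSP5 it was also 0.225 without 0 h replicate 2. ERRFI1, an inhibitor of the EGF receptor, had the smallest p of the uncalled members (1.53 and 1.19 CPM, then 2.01 and 2.04 CPM, edgeR adjusted p 0.181). The abundant members PEBP1 and SPRED2 stood at 92.7 to 101 CPM and 71.2 to 81.4 CPM over the 4 libraries and were not called. DUSP2 had 0, 0, 0 and 2 reads. DUSP14 is uncertain, with 157 reads in 0 h replicate 1 and 0 in 0 h replicate 2.

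The inflammatory and NF-kB list had 3 of 37 tested members (8.11%) called higher and none lower, against 0.165% and 0.0057% of all genes tested. The list median was 0.08. CD69, an early activation antigen of lymphocytes that is induced through protein kinase C, had the largest rise of the 3. It went from 45.9 and 31.7 CPM to 162 and 152 CPM, 2.02 on the log2 scale (SE 0.18, edgeR adjusted p 8.06e-05), with 1.82 within replicate 1 and 2.26 within replicate 2. CXCL8, the chemokine interleukin 8 that attracts neutrophils, went from 6.08 and 4.73 CPM to 13.4 and 16.3 CPM, 1.45 on the log2 scale (SE 0.15, edgeR adjusted p 0.000584). NFKBIZ, an inducible nuclear member of the IkB family, went from 13.5 and 13.8 CPM to 24.4 and 26.3 CPM, 0.89 on the log2 scale (SE 0.12, edgeR adjusted p 0.0058). Leaving out 0 h replicate 2 moved its adjusted p to 0.0562, and leaving out 0.5 h replicate 2 moved it to 0.102. The genes for the NF-kB inhibitor NFKBIA and the deubiquitinase TNFAIP3, often used as early readouts of NF-kB, were at 12.8 and 14.3 CPM against 14.1 and 13.2 CPM, and at 55.4 and 55.04 CPM against 55.6 and 51.7 CPM. Neither was called (edgeR adjusted p 0.988 and 0.845). SOD2 and REL, the most abundant members, were not called either (edgeR adjusted p 0.764 and 0.181), and CCL3 had at most 1 read in any of the 4 libraries.

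Messages of the signalling proteins themselves were not called. Among the PMA sensors and members of the ERK cascade, edgeR called 0 of 49 genes, where 0.171% of all genes tested were called. DESeq2 and limma-voom also called 0, against 121 and 24 of all 17559 genes tested. With so small a share called, the 0 of 49 does not set this list apart. At an unadjusted p under 0.05, 20 members passed (8 higher, 12 lower), where 10.9% of all genes tested were higher and 11.3% lower. The list median was -0.06 on the log2 scale, and 0.0013 with the GC trend described further on removed from each library. PRKCB, a PMA-binding protein kinase C, stood at 564 and 577 CPM and then at 614 and 599.9 CPM. DGKI, a diacylglycerol kinase, had the largest fitted change on 10 or fewer reads per library. RPS6KA4, a kinase downstream of ERK, stood at 16.8 and 20.4 CPM and then at 12.7 and 13.1 CPM (edgeR adjusted p 0.181). Without 0 h replicate 1, 19 of the 49 were called, where 19.9% of all genes tested were.

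Heat shock and handling genes, listed because the control had no mock treatment, had 0 of 32 members called by edgeR and by limma-voom. These methods called 30 (0.171%) and 24 of all 17559 genes tested, so the 0 does not show that the list was unchanged. DESeq2 called 2 of the 32, against 121 of all 17559 genes tested. At an unadjusted p under 0.05, 16 members passed (11 higher, 5 lower), where 10.9% of all genes tested were higher and 11.3% lower. The median of this list was 0.18, the highest of the 9 lists. With the GC trend described further on removed from each library, it was 0.085. In that fit the medians were 0.22 for the immediate-early transcription factors, 0.17 for the other immediate-early genes and 0.13 for the NF-kB list. The chaperones HSP90AA1 and HSP90AB1 stood at 1578 and 1395 CPM against 1861 and 1968 CPM, and at 2300.2 and 2393 CPM against 2503 and 2448 CPM. DNAJB4, a co-chaperone, stood at 24.9 and 14.6 CPM and then at 34.8 and 32.3 CPM (edgeR adjusted p 0.181). In the fit without 0 h replicate 1, which called 19.9% of all genes tested, 13 of the 32 were called.

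Of the listed genes of the starting and the later cell state, only CCNL1 was called. The short-lived transcripts of dividing cells had 1 of 35 called (2.86%), CCNL1, against 0.171% of all genes tested. The list median was 0.02. CCNL1 encodes a cyclin that works in splicing and stood at 116 and 95.1 CPM and then at 183 and 171 CPM, 0.74 on the log2 scale (SE 0.11, edgeR adjusted p 0.0129). Leaving out 0 h replicate 2 gave an adjusted p of 0.134, and leaving out 0.5 h replicate 1 or 2 gave 0.203 or 0.0773. The abundant CCND2 and the pro-apoptotic BBC3 were not called (edgeR adjusted p 0.478 and 0.181). The erythroid list had 0 of 23 called by edgeR, DESeq2 and limma-voom. Of all 17559 genes tested, these methods called 30 (0.171%), 121 and 24, so the 0 does not set this list apart. At an unadjusted p under 0.05, 8 members passed (2 higher, 6 lower), where 10.9% of all genes tested were higher and 11.3% lower. The list median was -0.14, and 0.0066 with the GC trend removed from each library. HBG2 stood at 736 and 905 CPM at 0 h and at 683 and 656 CPM at 0.5 h, HBZ at 33.3 and 61.8 CPM and then at 30.1 and 31.0 CPM, and TFRC, the transferrin receptor, at 370 and 303 CPM and then at 419 and 398 CPM. The megakaryocyte and platelet list had 0 of 13 called by edgeR, DESeq2 and limma-voom, which does not set it apart either. At an unadjusted p under 0.05 there was 1, where 22.3% of all genes tested passed. ITGA2B, the platelet integrin subunit, stood at 52.6 and 62.9 CPM and then at 46.4 and 46.1 CPM (edgeR adjusted p 0.181), and RUNX1 and NFE2 were not called. The platelet genes GP9 and PF4 were too low to test, and neither had more than 1 read in any library of the course. Without 0 h replicate 1, the counts were 10 of the 35 short-lived, 8 of the 23 erythroid and 1 of the 13 megakaryocyte genes, against 19.9% of all genes tested.

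The remaining 10 called genes belonged to no list. RRM2, the small subunit of ribonucleotide reductase, went from 96.1 and 99.8 CPM to 163 and 178 CPM, 0.80 on the log2 scale (SE 0.09, edgeR adjusted p 0.00105). With counts derived from TPM and scaled by gene length the change was 0.33 (edgeR adjusted p 0.262). SAT1, which acetylates polyamines for export, went from 47.4 and 52.0 CPM to 85.3 and 82.7 CPM, 0.76 on the log2 scale (SE 0.10, edgeR adjusted p 0.00224). TSPOAP1, a binding partner of the mitochondrial protein TSPO, went from 6.78 and 6.18 CPM to 15.3 and 19.6 CPM, 1.43 on the log2 scale (SE 0.18, edgeR adjusted p 0.00204). These 3 were called whichever of the 4 libraries was left out, but not in a fit of the 4 libraries alone, with or without GC removal. RRM2 overlaps AC007240.1 on the same strand. GLIPR1 (2.18 and 1.64 CPM, then 4.07 and 3.73 CPM) and SMIM47 (8 and 5 reads, then 40 and 36 reads) had edgeR adjusted p of 0.0213 and 0.0248. Leaving out 0 h replicate 2 gave them 0.32 and 0.371, leaving out 0.5 h replicate 1 gave 0.264 and 0.19, and leaving out 0.5 h replicate 2 gave 0.102 and 0.15. They overlap KRR1 and ACP4 on the other strand.

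The other 5 have similar copies elsewhere or overlap other genes, so the locus of their reads is uncertain; how many reads are shared was not measured. H4C15, a histone H4 gene with near-identical copies, stood at 38.0 and 33.3 CPM and then at 62.2 and 63.4 CPM (edgeR adjusted p 0.0309), and H2BC19P, a histone H2B pseudogene, at 11.8 and 10.3 CPM and then at 18.2 and 17.7 CPM (edgeR adjusted p 0.0159). DRG1P1, a processed pseudogene of DRG1, had 12 and 12 reads and then 49 and 56 (edgeR adjusted p 0.0213). The gene ENSG00000285000, whose transcript runs over AGGF1 and ZBED3, had 0 reads in both 0 h libraries, then 102 and 112, which is at least 31.3-fold higher, with an edgeR adjusted p of 0.0129. The single gene called lower was ABCB10P4, a processed pseudogene of ABCB10 on chromosome 15 (28506625 to 28508808), with 458 and 605 reads at 0 h and 0 at both 0.5 h and 1.5 h. That is at least 203-fold lower against the floor of 3 reads per library (edgeR adjusted p 0.0235), and which locus its reads came from is not known. Leaving out 0 h replicate 2 gave these 5, in the order named, edgeR adjusted p of 0.349, 0.202, 0.232, 0.123 and 0.118, and leaving out 0.5 h replicate 2 gave 0.287, 0.134, 0.287, 0.0548 and 0.167. Leaving out 0.5 h replicate 1 gave 0.244 for H4C15, 0.203 for H2BC19P, 0.0916 for DRG1P1 and 0.19 for ABCB10P4.

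The deposited values are per transcript, so the assignment of each rise within its gene could be followed. In NR4A1 the share of reads assigned to transcripts not annotated as coding, all of them of the retained-intron class, was 5.43 and 5.93% at 0 h and 46.4 and 45.7% at 0.5 h. The retained-intron transcript NR4A1-215 went from 12 and 16 reads to 451 and 368, while the coding transcript NR4A1-206 went from 309 and 315 to 429 and 381, a CPM ratio of 1.12. Most of the gain of NR4A1 was thus in a transcript that keeps intron sequence. The share not annotated as coding went from 12.4 and 10.3% to 31.0 and 25.6% in ATF3, from 7.53 and 8.50% to 14.4 and 14.5% in CD69, and from 3.40 and 3.88% to 8.07 and 8.38% in MCL1. In each of these genes both 0.5 h libraries exceeded both 0 h libraries. Over the pooled reads of all tested coding genes the share was 11.95 to 12.4% in the 4 libraries.

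CCNL1 and SAT1 also differed between transcripts. Of the CCNL1 reads, 92.2 to 96.7% were on transcripts not annotated as coding, and the coding CCNL1-202 had 165 and 150 reads at 0 h and 207 and 173 at 0.5 h, a CPM ratio of 1.04. In SAT1 the coding SAT1-204 had a CPM ratio of 1.04, while SAT1-207, which is not annotated as coding, had 3.17 and the coding SAT1-202 had 3.20. Of the 29 genes, 12 had a higher share not annotated as coding in both 0.5 h libraries than in both 0 h libraries, and 2, RRM2 and BTG2, had a lower one. The groups overlapped in 5, the share was the same in all 4 libraries in 3, 6 have 1 annotated transcript, and EGR4 had no reads at 0 h. How many of all genes tested show such a split was not counted, so the 12 are only a description. Some of the 12 rest on few reads. EGR3 had 6 and 7 reads at 0 h, and the share in DUSP5 was 0% at 0 h and 0.80 and 0.74% at 0.5 h. BTG2 had 3.59 and 8.25% at 0 h, then 0.758 and 2.83%. In RRM2 the share went from 14.3 and 22.5% at 0 h to 8.35 and 7.13% at 0.5 h. The rise lay in RRM2-201 (2091 and 1721 reads, then 5158 and 5258). The reads of H4C15 were 97.3 to 99.2% on a transcript not annotated as coding in all 4 libraries. Salmon divides reads among transcripts that share sequence, so these shares are estimates and were given no test.

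**Figure D3:**
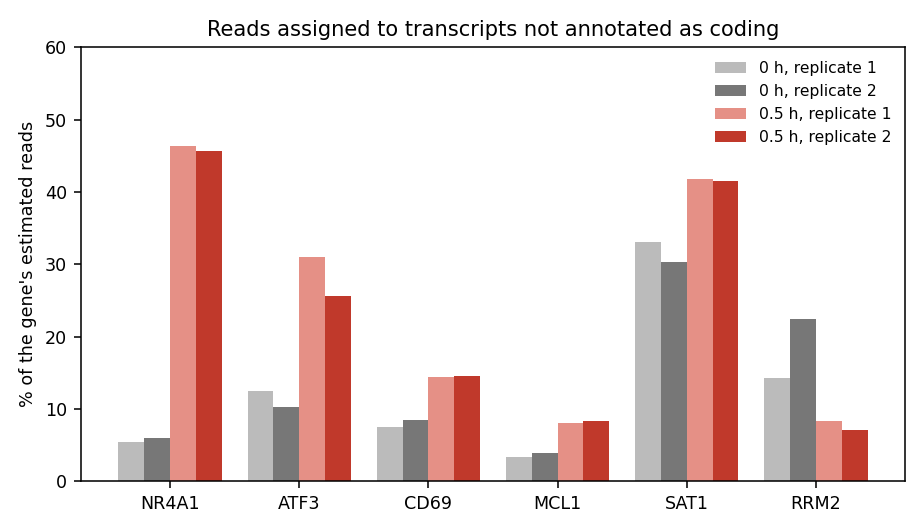
Share of a gene's estimated reads assigned to transcripts not annotated as coding, in % on an axis from 0, for 6 of the genes called higher; bars are the 2 libraries of 0 h (greys) and of 0.5 h (reds). NR4A1 goes from 5.43 and 5.93% to 46.4 and 45.7%, ATF3, CD69, MCL1 and SAT1 go up by less, and RRM2 goes down.

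The coding genes that rose were short. The span from start to end of the most used transcript had a median of 5035 nt in the 27 coding genes called higher and 23578 nt in the 15426 coding genes tested. The span was under 10000 nt in 21 of the 27 (77.8%) and in 27.4% of all coding genes tested. It was over 30000 nt in 1 of the 27 (3.7%), against 42.9%. The median number of exons was 4 against 8, and JUN and JUNB have 1. The spliced length differed less, with medians of 2477 and 2998 nt, and the medians of GC content were 50.9 and 49.1%. In TSPOAP1 the transcript spans 25814 nt with 32 exons, and in DUSP5 it spans 13707 nt. These are descriptions of the called genes, with no test.

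The 0 h libraries differed from each other along GC content. In 9964 genes whose mean log2 CPM was above 3, the log2 difference between 0 h replicate 2 and replicate 1 had a Pearson correlation of 0.72 with GC content (Spearman 0.86). Genes under 40% GC were lower in replicate 2 by a median of -0.46 and genes of at least 60% GC were higher by 0.35. The 0.5 h libraries showed no such gradient between them, with a correlation of -0.0069 and band medians from -0.06 to 0.0029. At the 6 later time points the replicate difference correlated with GC content at -0.38 to 0.56. These are correlations across genes of 1 pair of libraries, which share depth and base composition, and they have no p-value.

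The comparison of 0.5 h with 0 h ran along GC content as well. The mean log2 difference correlated with GC content at -0.75, with -0.47 within replicate 1 and -0.79 within replicate 2. Within replicate 2 the band medians ran from 0.54 under 40% GC to -0.58 at 60% GC and over, and within replicate 1 from 0.16 to -0.18. The gradient was thus present in both replicates and was steeper in the one with the divergent 0 h library. Its slope per 10 percentage points of GC was -0.13 on the log2 scale within replicate 1 and -0.45 within replicate 2. The median gap between transcript length and effective length, which follows fragment length, was 199 nt in 0 h replicate 2, 248 nt in 0.5 h replicate 2, and 217 and 213 nt in the 0 h and 0.5 h libraries of replicate 1. The part of fragment length in the gradient was not tested.

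**Figure D4:**
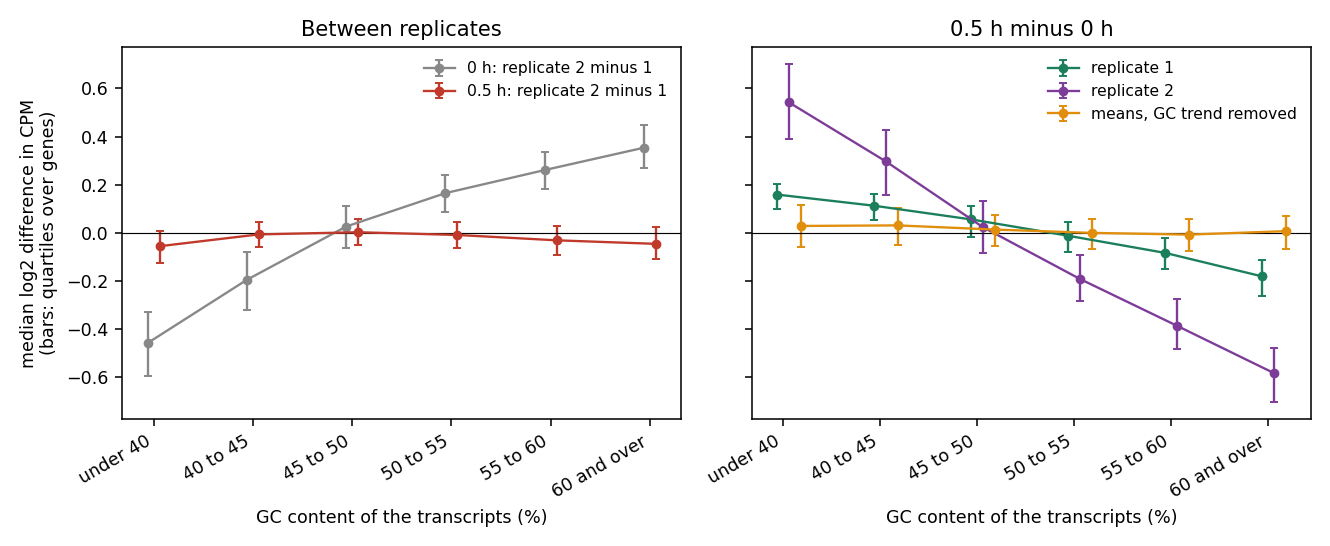
Median log2 difference in CPM in 6 bands of transcript GC content, with bars from the lower to the upper quartile over genes, between replicates of a time point (left) and between 0.5 h and 0 h (right). The 0 h replicates tilt from -0.46 to 0.35 and the 0.5 h replicates are flat; 0.5 h minus 0 h tilts down in both replicates, and the tilt is gone once the trend is removed from each library.

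Genes at an unadjusted p under 0.05 followed the gradient, while the genes called higher were found in every GC band. Of 2124 tested genes under 40% GC, 752 were higher and 9 lower at an unadjusted p under 0.05, and of 2434 genes at 60% GC and over, 28 were higher and 1113 lower. The 29 genes called higher were spread over the 6 bands as 3, 5, 4, 7, 5 and 5, from CXCL8 at 33.7% GC to EGR4 at 66.1%. Without 0 h replicate 1, the 1939 genes called higher had a median GC of 39.97% and the 1646 called lower one of 60.7%, against 48.8% for all tested. With the GC trend removed from each library, the correlation was -0.03 and 52 genes (0.296%) were called, 51 of them higher (0.29%), including all 30 of the genes described above. For GC-rich rising genes the change grew, as in JUNB (64.9% GC), from 1.62 to 2.08, and for AT-rich ones it shrank, as in CD69 (36.8% GC), from 2.02 to 1.67.

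Removal of the trend added 22 genes. The immediate-early genes ZFP36, GADD45B, FOSL1, MAFF, NR4A2, RHOB and SOCS3 were among them. ZFP36 had a log2 change of 1.4 on the log2 scale in that fit (edgeR adjusted p 0.00216), GADD45B, a stress-response regulator of MAP kinases, 1.01 (edgeR adjusted p 0.000438), and FOSL1, an AP-1 subunit, 1.00 (edgeR adjusted p 0.0196). The list of immediate-early transcription factors then had 13 of 45 members called, and the other immediate-early genes 8 of 52, against 0.296% of all genes tested. The chemokine CXCL2 and the co-chaperone DNAJB1 were called as well, at 0.51 and 0.60 on the log2 scale (edgeR adjusted p 0.0262 for both). All 22 were higher at 0.5 h.

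The next hour continued most of these rises. The comparison of 1.5 h with 0.5 h uses the same 0.5 h libraries, so its values are set beside the first ones as a description. From 0.5 to 1.5 h, 22 of the 29 genes were called higher and none lower, where 5.77% of all genes tested were called, 4.11% higher and 1.67% lower. FOS went on to 352 and 360 CPM (1.43 on the log2 scale from 0.5 h, edgeR adjusted p 1.71e-06) and EGR1 to 3218 and 3632 CPM (1.34, edgeR adjusted p 0.00056). The order of the genes changed. CXCL8 reached 372 and 403 CPM, a further 4.71 on the log2 scale, BTG2 reached 323.0 and 323.1 CPM, a further 4.05, and NR4A1 reached 359 and 304 CPM, a further 3.69. These genes had changed by 0.82 to 1.45 in the first 30 min.

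The 7 genes not called in this interval were CCN1, SAT1, NFKBIZ, CCNL1, H4C15, DRG1P1 and ENSG00000285000. NFKBIZ stood at 24.4 and 26.3 CPM at 0.5 h and at 19.5 and 19.8 CPM at 1.5 h (edgeR adjusted p 0.116), and 0.5 h was its highest mean of the 8 time points. That was also so for H4C15 and DRG1P1. The highest mean fell at 1.5 h for 5 genes (FOS, ATF3, CD69, CCN1 and IER2), at 3 h for 7, at 6 h for 11, and at 24 h or later for 3. KLF10 and KLF6, which were not called at 0.5 h, were called higher from 0.5 to 1.5 h (3.15 and 2.48 on the log2 scale, edgeR adjusted p 3.44e-10 and 2.81e-09).

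**Figure D5:**
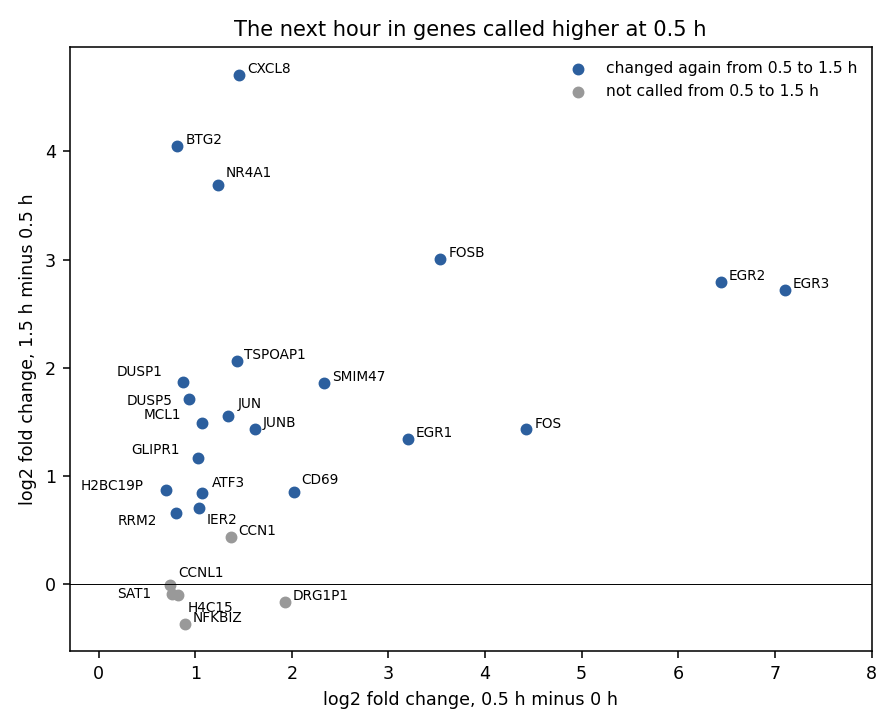
Log2 fold change from 0.5 to 1.5 h against log2 fold change from 0 to 0.5 h for 27 genes called higher at 0.5 h; EGR4 and ENSG00000285000, with 0 reads at 0 h, are left out. Both axes use the same 0.5 h libraries; CXCL8, BTG2 and NR4A1 lie at the upper left with small first changes and large second ones, and the grey points are the genes not called from 0.5 to 1.5 h.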

How the data were processed

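Per the labels' protocols, column-purified total RNA of K562 cells was treated with DNase, depleted of ribosomal RNA and sequenced. The authors deposited a transcript table per library with expected counts (estimated reads that need not be whole) and TPM, per the file headers; the column names are those of Salmon, which the submitters' processing notes name without a version, beside builds hg19 and hg38 with no stated role. Transcripts were matched by identifier without version to GENCODE release 29 (167027 of 177456, 94.1%), and estimated counts were summed per gene and rounded. Unmatched transcripts carried 3.01 to 3.75% of the reads of a library and were left out.

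All 16 libraries were fitted with edgeR 4.0.16 in R 4.3.3 (filterByExpr, TMM factors 0.854 to 1.14, quasi-likelihood F-test, 8 residual degrees of freedom), so the spread is shared over 8 time points. CPM values use TMM-scaled totals, fold changes a prior count of 0.125, and list medians include genes at 0. A floor of 3 reads was 0.0943 CPM at 0 h and 0.0826 CPM at 0.5 h and covers counting error only. The strandedness of the counting is not given in the sources used here, so overlapping genes cannot be told apart. GC trends were removed by a loess offset per library (span 0.3). Simulated counts with known changes served to check the test. With 2 libraries on each side no exact permutation test could pass the threshold, and each call relies on the spread pooled by the model. Alternatives were other size factors, DESeq2 1.42.0, limma-voom (limma 3.58.1), other filters, a replicate block, fits of the 4 libraries only, GC removal and leaving out libraries. Named genes were all called genes and, from each list, the member with the largest change, the 2 most abundant and the uncalled member with the smallest p; other genes were named after their values were seen. Some genes that this rule names are not reported here. The members and lists were chosen with earlier results of these data known. Human chromosome 8 sequence is not printed.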

Additional observations from a re-analysis of the deposited data

How the results depend on the processing

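All 30 genes kept their direction in each of 20 alternatives, and 6 (FOS, FOSB, EGR1, JUN, JUNB and NR4A1) were called in every one. EGR2 and EGR3 were called in all 19 that tested them. Against 30 calls at 0.5 h, DESeq2 called 121 genes (64 higher, 57 lower), the test without a low-count filter 1538 (798 and 740), an adjusted p under 0.01 18, and the 4 libraries alone 12, of which 10 were among the 30. GC removal called 52, and GC removal without 0 h replicate 1, added after seeing the data, 90 (67 and 23). Leaving out single libraries gave 20 to 3585 calls. Other size factors gave 30, and voom 24. Between 0.5 and 1.5 h, where 1014 genes were called, GC removal gave 1716, an adjusted p under 0.01 540, and leaving out a library 427 to 1163. Against 0 h, where 1.5 h gave 3003, the stricter p gave 1160 and leaving out a library 1006 to 5008. Scaling to total counts lowered the share called higher from 71.1 to 58.0% in the first and from 52.9 to 32.0% in the second, with medians over all genes of -0.09 and -0.12. The GC correlation of -0.75 was -0.41 over all genes tested, and -0.79 to -0.47 without single libraries. The causes of these differences were not tested.

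The replicate number as a block called 38 genes at 0.5 h, 580 with the 4 libraries alone and, with GC removal, 69 at 0.5 h and 2082 between 0.5 and 1.5 h. Same-numbered deviations correlated at 0.14 between 0 h and 0.5 h and at -0.29 to 0.60 over 28 pairs of time points, 24 of them over 0.1. The median gap between transcript length and effective length was 210 to 221 nt in the 8 replicate 1 libraries. It was 229 to 248 nt in the 7 replicate 2 libraries other than 0 h, and 199 nt in 0 h replicate 2. Same-numbered libraries thus shared this feature, apart from 0 h replicate 2. As not every pair was over 0.1 and the labels do not name what same-numbered libraries share, pairing was not taken as established.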
